A study of Mus musculus with 18 samples.

Results

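The way transcription moved between 2 h and 8 h of ERK activation was compared in mouse embryonic stem cells without and with Med24, gene by gene. The comparison used 12 of the 18 libraries of the study, 3 clones labelled A, B and C for each of 4 groups: knockout and rescued cells at 8 h, and knockout and rescued cells at 2 h. For each gene the 2-to-8 h step was the log2 fold change of the level at 8 h over that at 2 h, and the quantity reported is the knockout step minus the rescued step. A difference above 0 means a larger rise or a smaller fall in knockout cells. The quantity was estimated for 14128 of the 25897 genes in the table, those with enough counts to be tested.

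All groups were E14tg2a embryonic stem cells of 129SV background in which endogenous Med24 had been knocked out. All carried a FLAG-tagged Med24 cDNA under a tetracycline-regulated promoter and a cassette expressing cRAF-ErT2 and rtTA. Knockout cells were kept without doxycycline, so that the cDNA was off, and rescued cells, labelled WT, were kept with 500 nM doxycycline. Cells were grown in serum, LIF and 2 µM Chir99021, an inhibitor of GSK3, and moved 24 h ahead of treatment into serum and LIF with 250 nM PD173074, an inhibitor of FGF receptors. They then received 250 nM 4-hydroxytamoxifen (4OHT), which switches on the cRAF-ErT2 kinase and through it ERK, for 2 h or 8 h. RNA made in the last 15 min was labelled with 5 mM ethynyl uridine, captured and sequenced, so the counts follow transcription more closely than RNA stores. The labels do not say whether the clones were independently derived, so p-values measure the spread between clones labelled alike. Doxycycline and Med24 cannot be told apart, since every rescued and no knockout culture received the drug.

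Mediator is a large complex that carries signals from DNA-bound activators to RNA polymerase II. Med24 belongs to its tail module, the side that meets many activators. ERK, the last kinase of the RAF, MEK and ERK cascade, first drives immediate early genes such as the AP-1 subunits Fos and Jun. Their products and the inhibitors that ERK induces, among them Sprouty proteins and dual-specificity phosphatases, then shape a later wave of transcription. In embryonic stem cells ERK signalling moves cells away from naive pluripotency.

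The targeted gene matched the labels in each library. Values given in threes are those of clones A, B and C in that order, unless means are named. Med24 (chromosome 11, 98704591 to 98729435, minus strand, GRCm38) had 39.5, 41.7 and 35.5 CPM at 0 h, 49.2, 43.1 and 47.3 CPM at 2 h and 41.1, 42.8 and 33.96 CPM at 8 h in knockout clones A, B and C. In rescued clones, where the cDNA adds reads, Med24 had 528, 602 and 515 CPM at 0 h, 1519.7, 1775 and 1610.2 CPM at 2 h and 405, 407 and 399 CPM at 8 h. Knockout and rescued values did not overlap at any time. The rescued level itself fell between 2 h and 8 h by 2.02 on the log2 scale (edgeR adjusted p = 2.15e-21), so the amount of new Med24 RNA in the rescued cells was not constant over the step. Totals ranged from 6691177 to 14541145 counts per library. Pou5f1, which defines the pluripotent state, had 212 to 383 CPM (counts scaled to a common library size) over the 12 libraries, Sox2 183 to 362 CPM and Zfp42 571 to 773 CPM. Of 13 fibroblast markers 7 passed the filter, and their summed level was 361 to 459 CPM in knockout and 294 to 309 CPM in rescued libraries at 8 h, against 287 to 345 CPM in knockout and 345 to 381 CPM in rescued libraries at 2 h. Fn1 (701 to 2851 counts) and Vim (364 to 1877 counts) had the most reads, Lum and S100a4 were at 0 in all 12 libraries, and Dcn and Postn reached at most 1 count. Of 16 neural markers 7 passed the filter. Their summed level was 155 to 157 CPM in knockout and 195 to 205 CPM in rescued libraries at 8 h. At 2 h it was 138 to 149 CPM in knockout and 207 to 228 CPM in rescued libraries. Stmn2 (507 to 2179 counts) and Nes (118 to 480 counts) had the most reads, and Neurog2, Neurod1 and Tubb3 were at 0 throughout. Of the 7 tested fibroblast markers the step difference was above 0 for 2, Thy1 and Vim, with edgeR, and for none with DESeq2 or without knockout clone B at 8 h, with 4 at an unadjusted p under 0.05. Without the 3 knockout libraries described next 1 was above 0. Of the 7 neural markers 1, Stmn2, was above 0. Of all 14128 genes tested 4.38% were above 0 with edgeR, and 3095 had an unadjusted p under 0.05 in either direction. The step difference of the 1 tested marker of 2-cell-like cells was not called. At 2 h this marker had 2.60 to 3.40 CPM in knockout and 0.0 to 0.38 CPM in rescued libraries. At 8 h it had 0.999 to 1.81 CPM in knockout and 0.065 to 0.23 CPM in rescued libraries. The genotypes did not overlap at either time. The part of fibroblast, neural or 2-cell-like cells in the results was not tested. In 3 knockout libraries (2 h clone A, 8 h clones B and C) 13 very abundant genes, Cdk8 and Cd44 among them, held 34.2%, 36.4% and 43.9% of counts, against 17.7% to 22.2% in the other 9. For some lists the counts of called members are therefore also given without these 3 libraries. That fit keeps clone A as the only knockout library at 8 h, so its counts and adjusted p rest on that clone there.

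The step differed between knockout and rescued cells at a minority of genes, and in both directions at similar counts. The difference was above 0 for 619 genes, 4.38% of those tested, and below 0 for 652 genes, 4.61% (edgeR quasi-likelihood test, Benjamini-Hochberg adjusted p under 0.05). Together they made 9% of the genes tested. At an unadjusted p under 0.05 there were 3095. The size passed 2-fold at 117 genes above 0 and 93 below 0. Of the calls, 343 above 0 and 364 below 0 held in every one of the 12 fits that left out 1 library. The step itself was large in both genotypes: 29.4% of genes were higher and 27.7% lower at 8 h in knockout cells, and 30.7% higher and 30.2% lower in rescued cells. Over the 10100 genes whose step was called in either genotype, the knockout and rescued steps, which share no library, had r = 0.873 across genes, and 91.6% had the same sign. Genes are not independent replicates, so this r is a description.

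**Figure D1:**
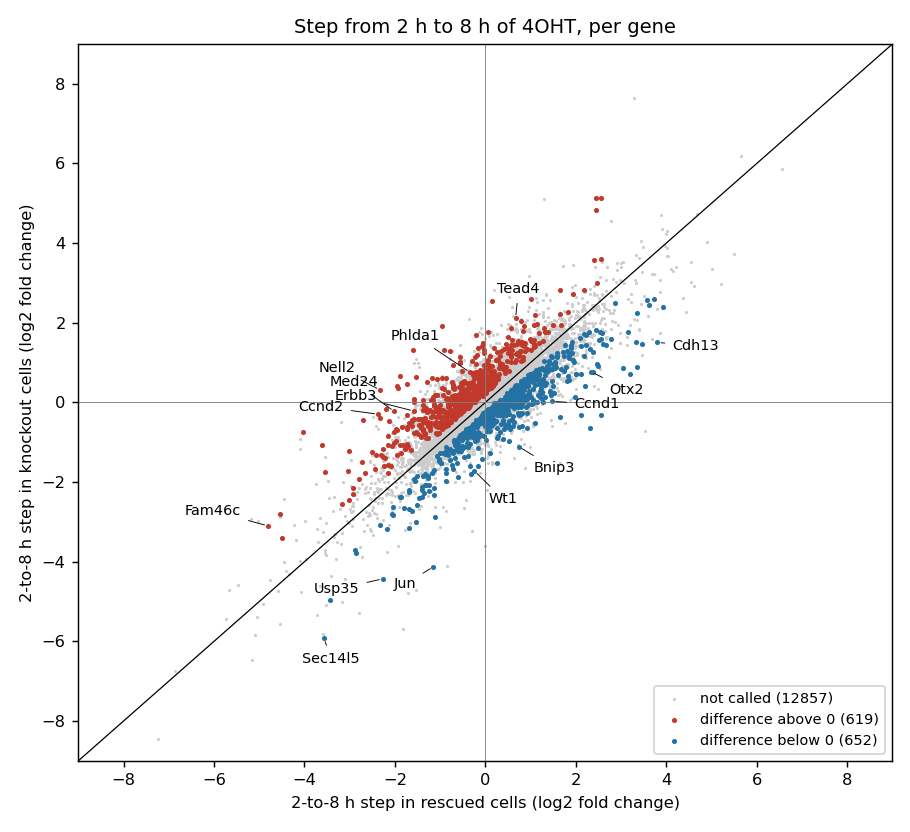
The 2-to-8 h step of each of 14128 genes in rescued cells (x axis) and in knockout cells (y axis), both as log2 fold changes, with the line of equal steps. The 619 genes above 0 (red) and 652 below 0 (blue) lie on either side of a cloud that follows the line, and Jun stands far below it.

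The calls fell into several shapes. Among genes above 0, 167 fell in rescued cells with no called step in knockout cells, and 160 fell in both genotypes with a smaller fall in knockout cells. A further 128 rose in knockout cells with no called step in rescued cells, 109 rose in both with a larger rise in knockout cells, and 54 rose in knockout but fell in rescued cells. Among genes below 0, 180 rose in both with a smaller rise in knockout cells and 161 rose in rescued cells with no called step in knockout cells. In the other direction 159 fell in both with a larger fall in knockout cells, 101 fell in knockout cells with no called step in rescued cells, and 51 fell in knockout but rose in rescued cells. Seen by time, 324 of the 652 genes below 0 had no called difference between the genotypes at 2 h and were lower in knockout cells at 8 h. In contrast 204 of the 619 above 0 were lower in knockout cells at 2 h and had no called difference at 8 h, 186 had none at 2 h and were higher in knockout cells at 8 h, and 136 were lower at both times. A step or difference that was not called is not shown to be absent. With library size alone in place of TMM scaling the median difference over all genes moved to -0.16, and the calls became 79 above and 292 below 0, 21.3% above against 48.7% with TMM. Only relative changes are therefore meant here and in what follows, since the labels name no spike-in, and for a mixed population fewer cells of a type and less RNA per cell cannot be told apart.

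Jun, which encodes the c-Jun subunit of the AP-1 transcription factor, had the lowest difference among the named genes. Jun (chromosome 4, 95049034 to 95052222, minus strand) had 18.2, 16.6 and 16.9 CPM at 0 h, 205, 203 and 212 CPM at 2 h and 11.3, 10.98 and 13.8 CPM at 8 h in knockout clones A, B and C. In rescued clones Jun had 15.3, 17.96 and 15.1 CPM at 0 h, 65.4, 79.6 and 64.3 CPM at 2 h and 31.7, 32.6 and 29.7 CPM at 8 h. The genotypes overlapped at 0 h, knockout libraries were the higher ones at 2 h and the lower ones at 8 h, with no overlap at either time. The knockout step was -4.13 ± 0.088 and the rescued step -1.15 ± 0.076 on the log2 scale (SE, n = 3 clones per group), and their difference was -2.98 ± 0.12 (edgeR adjusted p = 4.68e-17). Knockout minus rescued levels were -1.41 ± 0.11 at 8 h and 1.57 ± 0.065 at 2 h. An opposite-strand gene, Junos, overlaps Jun, and since no source used here tells if counting used strand, reads of the pair cannot be told apart.

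The Jun promoter is shown because c-Jun is known to act on its own gene through AP-1-like elements. It is the RefSeq window of 250 bases before to 50 after the start (GRCm38.p6, chr4:95052173-95052472, minus strand), printed 5′ to 3′. The capitals mark the one match to a CRE-like AP-1 element, TGACNTCA, which was searched on both strands.
Jun: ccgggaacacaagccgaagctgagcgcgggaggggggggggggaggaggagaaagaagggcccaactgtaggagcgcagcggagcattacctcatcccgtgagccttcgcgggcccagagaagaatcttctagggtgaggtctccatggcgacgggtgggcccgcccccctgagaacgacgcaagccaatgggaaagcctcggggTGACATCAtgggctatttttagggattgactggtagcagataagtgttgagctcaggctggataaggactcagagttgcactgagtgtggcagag
Of the genes tested that have a promoter entry, 8.34% held this element.

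**Figure D2:**
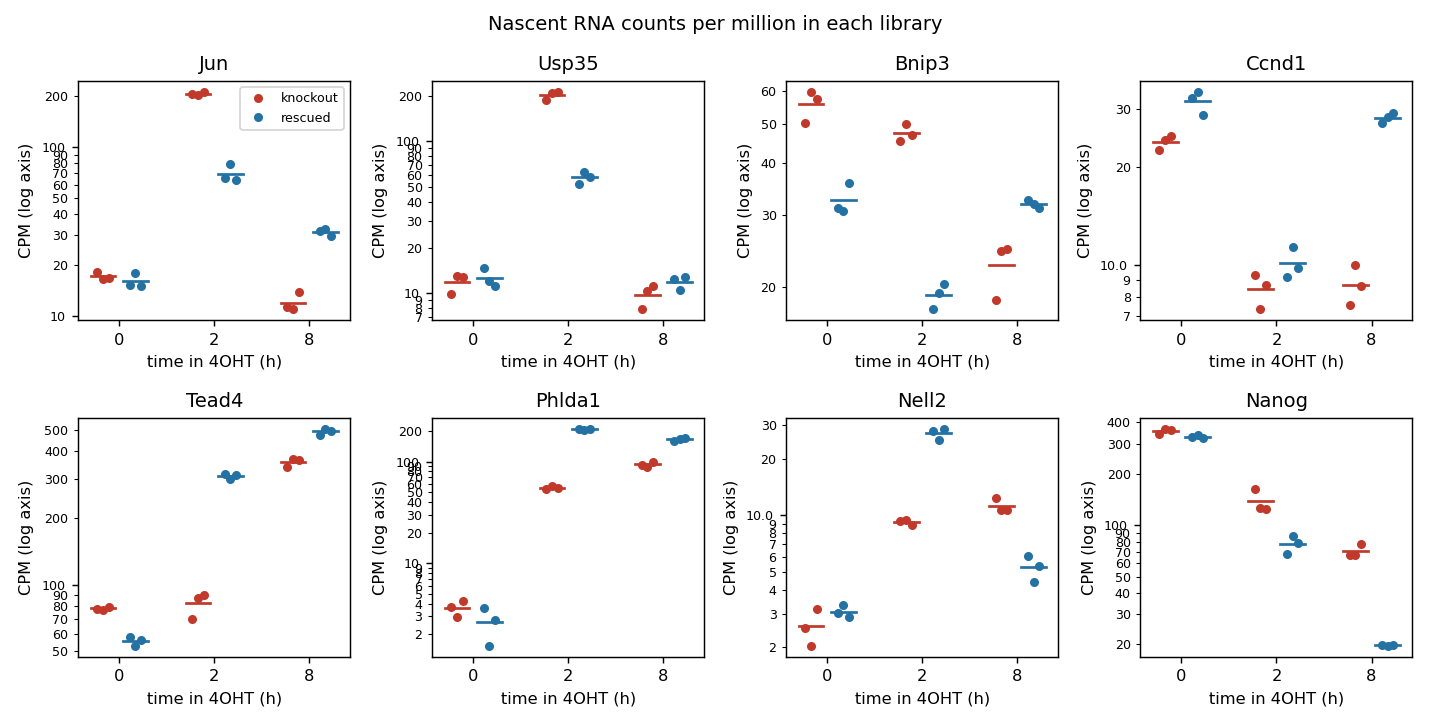
Nascent RNA of 8 genes at 0, 2 and 8 h of 4OHT in CPM on log axes, each point 1 library and each bar the mean of 3, with knockout (red) left of rescued (blue). At 2 h Jun and Usp35 are higher and Tead4, Phlda1 and Nell2 lower in all knockout than in all rescued libraries. At 8 h Bnip3 and Ccnd1 are lower and Nanog higher in all knockout than in all rescued libraries.

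The other immediate early genes differed less, and mostly the other way. Of 28 tested, 8 were above 0 and 2 below 0, against 4.38% and 4.61% of all genes tested, with a median of 0.23 against 0.0066 over all genes tested. Beside Jun, the member below 0 was Klf10, a TGF-beta-inducible repressor, at -0.36 ± 0.10, a call kept in 7 of the 12 fits that left out a library. Ier2 had 200.2, 177 and 184 CPM in knockout and 211, 231 and 217 CPM in rescued libraries at 8 h. At 2 h Ier2 had 195, 196 and 189 CPM in knockout and 366, 380.2 and 353 CPM in rescued libraries. The 2 h values were lower in all knockout libraries. Its knockout step of -0.04 ± 0.066 was not called, it fell in rescued cells (-0.74 ± 0.062), and the difference was 0.698 ± 0.090 (adjusted p = 2.48e-06). Junb, a second Jun-family subunit, had the same shape with a difference of 0.53 ± 0.086. Ctgf, a secreted matrix-associated factor, fell in both genotypes, less in knockout cells (1.02 ± 0.12, adjusted p = 2.76e-07). Myc, a growth regulator, rose by 1.75 ± 0.089 in knockout and 1.19 ± 0.077 in rescued cells. Fosl1, the AP-1 subunit Fra-1, had 55.02, 49.6 and 51.98 CPM in knockout and 103, 98.8 and 97.2 CPM in rescued libraries at 8 h. At 2 h it had 33.1, 35.3 and 41.4 CPM in knockout and 84.9, 99.2 and 94.9 CPM in rescued libraries, and its steps differed by 0.41 ± 0.11. Jund (0.64) and Fosb (1.31) were also above 0, but without the 3 libraries rich in abundant genes their adjusted p was 0.0846 and 0.116. Ier5 was the eighth, at 0.67 ± 0.20. The differences of Fos (0.39 ± 0.16) and Egr1 (-0.24 ± 0.12) were not called. With library size alone 1 member was above and 1 below 0, and without the 3 libraries 7 above and 3 below.

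Several of the strongest differences lay side by side on the chromosome. Usp35, a deubiquitinase (chromosome 7, 97309380 to 97332020, minus strand), had 9.88, 13.02 and 12.8 CPM at 0 h, 188, 208 and 212 CPM at 2 h and 7.86, 10.3 and 11.1 CPM at 8 h in knockout clones A, B and C. In rescued clones Usp35 had 14.6, 12.1 and 11.2 CPM at 0 h, 52.4, 63.2 and 58.2 CPM at 2 h and 12.4, 10.5 and 12.9 CPM at 8 h. All knockout libraries exceeded all rescued ones at 2 h, and the genotypes overlapped at 0 h and 8 h. The step was -4.43 ± 0.10 in knockout and -2.27 ± 0.10 in rescued cells, a difference of -2.16 ± 0.16 (adjusted p = 9.42e-11). Its neighbour Kctd21, 0.307 kb away, had a difference of -1.76 ± 0.29, and Gab2, an adaptor that carries receptor signals towards ERK, 0.434 kb away on the other side, had -1.11 ± 0.25. Gab2 had means of 4.49 CPM in knockout and 4.13 CPM in rescued libraries at 8 h, and 32.4 CPM in knockout and 12.7 CPM in rescued libraries at 2 h. The adjusted p of Gab2 was 0.077 without the 3 libraries. The end of Usp35 faces Gab2 and its start faces Kctd21. With intervals this short, reads that run past the end of Usp35 cannot be told apart from reads of Gab2. Reads between Usp35 and Kctd21 cannot be assigned with certainty. Sec14l5 (chromosome 16, 5147109 to 5187271, plus strand) had 1.21, 1.17 and 0.629 CPM in knockout and 1.24, 0.885 and 1.16 CPM in rescued libraries at 8 h. At 2 h it had 60.9, 67.2 and 67.1 CPM in knockout and 12.4, 13.4 and 14.8 CPM in rescued libraries, so the genotypes differed at 2 h and overlapped at 8 h. Its difference was -2.35 ± 0.36. The size of this value rests on few reads, with 22 counts over the knockout and 36 over the rescued libraries at 8 h. Ppl, which encodes the cytolinker periplakin 14.7 kb from Sec14l5, had a difference of -1.48 ± 0.19. On the other side of 0, Gsg1 (1.55 ± 0.21) and Emp1 (1.37 ± 0.11), an epithelial membrane protein, were 108.2 kb apart with no tested gene between them. Col7a1 (1.09), Pfkfb4 (1.07) and Shisa5 (1.65) followed one another within 6.90 kb and 6.34 kb. Over the genome the tested gene next to a called gene was itself called for 167 of 1256 genes, 13.3% against 9% of all genes. Of these pairs 123 shared the direction and 44 did not, and among pairs that do not overlap 112 shared it and 44 did not. These pairs are given as counts with no test. Reads cannot be assigned with certainty either for other genes that overlap an annotated gene on the opposite strand, among those described here Ccnd2, Gsg1, Cdh13, Bnip3, Dclk1, Tead4, Nebl, Ccnd1, Mcc, Junb, Jund, Fosl1, Phlda1, Nrg1, Gbx2, Sox4, Cdh2, Krt8, Bmp4, Med13l, Cdk6, Hmgcs1 and Slc2a1.

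Some of the highest differences belonged to genes with a peak at 2 h in rescued cells, such as Nell2, Shisa5 and Fam46c, and others to genes whose rescued mean was lower at each later time, such as Aqp3 and Lrrc15. Nell2, a secreted glycoprotein with EGF-like domains (chromosome 15, 95075230 to 95528559, minus strand), had 2.53, 2.02 and 3.16 CPM at 0 h, 9.31, 9.45 and 8.87 CPM at 2 h and 12.4, 10.7 and 10.7 CPM at 8 h in knockout clones A, B and C. In rescued clones Nell2 had 3.004, 3.34 and 2.88 CPM at 0 h, 28.03, 25.02 and 28.9 CPM at 2 h and 6.08, 4.43 and 5.34 CPM at 8 h. Knockout libraries were all below rescued ones at 2 h and all above them at 8 h. The knockout step of 0.31 ± 0.14 was not called, the rescued step was -2.33 ± 0.12, and the difference was 2.64 ± 0.19 (adjusted p = 3.07e-11). Nell2 overlaps Tmem117 on the other strand. Shisa5, a membrane protein first described as p53-inducible, had means of 11.5 ± 1.0, 28.1 ± 1.5 and 30.1 ± 3.5 CPM in knockout and 9.57 ± 0.97, 46.3 ± 2.5 and 15.6 ± 0.97 CPM in rescued libraries at 0, 2 and 8 h (SD, n = 3). Its difference was 1.65 ± 0.13. Fam46c, a poly(A) polymerase, had means of 6.87 ± 0.96, 41.3 ± 5.8 and 4.94 ± 1.5 CPM in knockout and 7.004 ± 0.43, 110.3 ± 9.3 and 3.95 ± 0.59 CPM in rescued libraries at 0, 2 and 8 h. It fell in both, less in knockout cells (1.71 ± 0.24), with the genotypes apart at 2 h and overlapping at 8 h. Aqp3, a water and glycerol channel, had rescued means of 33.4, 17.4 and 1.55 CPM at 0, 2 and 8 h. It fell over the step in both genotypes and less in knockout cells, with 6.65, 7.32 and 9.22 CPM in knockout and 1.24, 1.77 and 1.62 CPM in rescued libraries at 8 h and a difference of 1.78 ± 0.23. Sema6a, a guidance ligand of the semaphorin family, had 1.81 ± 0.23, and Lrrc15, a leucine-rich repeat membrane protein, 1.68 ± 0.25.

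Other genes of this direction rose in knockout cells. Crym, a thyroid hormone binding protein, had 5.04, 7.66 and 9.43 CPM in knockout and 8.17, 6.32 and 7.19 CPM in rescued libraries at 8 h. At 2 h Crym had 3.21, 3.31 and 4.16 CPM in knockout and 11.7, 11.4 and 13.1 CPM in rescued libraries. It rose by 0.94 ± 0.22 in knockout cells and its rescued step was -0.71 ± 0.16, so that libraries apart at 2 h overlapped at 8 h. Oaf rose by 1.03 ± 0.31 in knockout cells with a rescued step of -0.55 ± 0.13, but its knockout level was 0.876 to 3.98 CPM at 2 h and 8 h, against 9.99 to 16.8 CPM in rescued cells. Lefty2, an inhibitor of Nodal, had 26.8, 22.1 and 22.8 CPM in knockout and 1.44, 1.77 and 2.205 CPM in rescued libraries at 8 h. At 2 h it had 28.7, 13.6 and 12.5 CPM in knockout and 6.29, 5.005 and 6.104 CPM in rescued libraries. All knockout libraries lay above all rescued ones at both times, with clone A the highest at 2 h. The knockout step of Lefty2 was 0.47 ± 0.20 (edgeR adjusted p = 0.0476) and the rescued step -1.74 ± 0.39. Knockout libraries at 2 h and 8 h overlapped, since clone A at 2 h lay above all of them at 8 h. The difference was 2.21 ± 0.44, and reads may be shared with the close copy Lefty1. Vtcn1, the immune checkpoint ligand B7-H4, rose by 1.501 ± 0.17 in knockout cells, with a rescued step of -0.06 ± 0.16 that was not called and a difference of 1.56 ± 0.24. Kcnmb2, a potassium channel subunit, and Nebl, an actin-binding nebulin relative, had the same shape at 1.53 ± 0.29 and 1.35 ± 0.27.

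Genes around the ERK pathway had calls in both directions, where 4.38% of all genes tested were above and 4.61% below 0. Of 22 feedback and ETS-factor genes 2 were above and 2 below 0, which became 1 above and 3 below without the 3 libraries, and Spry4 (-0.23 ± 0.095), Dusp6 (-0.24 ± 0.083), Etv4 (0.19 ± 0.091) and Etv5 (0.04 ± 0.078) were not called. Phlda1, an ERK-induced protein that dampens receptor signalling (chromosome 10, 111506286 to 111508645, plus strand), had 3.68, 2.93 and 4.26 CPM at 0 h, 53.1, 57.3 and 55.4 CPM at 2 h and 93.4, 89.04 and 98.3 CPM at 8 h in knockout clones A, B and C. In rescued clones Phlda1 had 3.63, 1.53 and 2.76 CPM at 0 h, 208, 206 and 211 CPM at 2 h and 161, 165 and 169 CPM at 8 h. Knockout libraries lay below rescued ones at 2 h and 8 h, by less at 8 h. The knockout step was 0.75 ± 0.068, the rescued step -0.34 ± 0.055 and the difference 1.09 ± 0.087 (adjusted p = 2.56e-10). Dusp14, a phosphatase, fell less in knockout cells (0.63 ± 0.17), with an adjusted p of 0.325 without the 3 libraries. Spry2, a feedback inhibitor, rose less in knockout cells, with 265, 268 and 281 CPM in knockout and 357, 371 and 349 CPM in rescued libraries at 8 h and a difference of -0.51 ± 0.076. Il17rd, an inhibitor of FGF signalling, followed at -0.43 ± 0.091. Among 9 EGFR ligands and receptors 2 were above and 1 below 0. Hbegf, an EGFR ligand, had 110.1, 96.7 and 97.5 CPM in knockout and 244, 259 and 237 CPM in rescued libraries at 8 h. At 2 h Hbegf had 88.4, 101 and 100.03 CPM in knockout and 420.4, 437 and 437 CPM in rescued libraries. The knockout step of 0.08 ± 0.068 was not called, Hbegf fell in rescued cells (-0.81 ± 0.057), and the difference was 0.88 ± 0.088. Erbb3, a receptor for neuregulins, fell less in knockout cells (1.36 ± 0.13, adjusted p = 1.69e-08), and its ligand Nrg1 was below 0 at -0.66 ± 0.16. Of 10 FGF ligands and receptors Fgf4, the ligand that embryonic stem cells make themselves, was below 0 at -0.39 ± 0.11 and no member was above 0 with the edgeR fit reported here or with DESeq2, with 1 at an unadjusted p under 0.05. Without a filter on low counts 1 was above 0, as was 1 without knockout clone A at 2 h and 2 without knockout clone A at 8 h.

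Transcription factors of cell state moved in both directions. Tead4, a partner of YAP that is needed for the trophectoderm lineage (chromosome 6, 128224288 to 128300823, minus strand), had 77.4, 77.2 and 79.5 CPM at 0 h, 70.2, 86.7 and 89.8 CPM at 2 h and 339, 368 and 364 CPM at 8 h in knockout clones A, B and C. In rescued clones Tead4 had 58.2, 52.9 and 56.4 CPM at 0 h, 315, 300.4 and 313 CPM at 2 h and 474, 506 and 494 CPM at 8 h. The rescued libraries were already high at 2 h, and knockout libraries lay below them at 2 h and 8 h without overlap. Tead4 rose over the step by 2.11 ± 0.065 in knockout and 0.67 ± 0.058 in rescued cells, a difference of 1.44 ± 0.087 (adjusted p = 5.54e-13). Trophectoderm genes had a summed level of 528 to 616 CPM in knockout and 718 to 776 CPM in rescued libraries at 8 h, against 194 to 212 CPM in knockout and 484 to 500 CPM in rescued libraries at 2 h, most of it from Tead4 at 8 h. Of the 14 tested, 4 were above and 1 was below 0, against 4.38% and 4.61% of all genes tested. The keratins Krt8 (1.07 ± 0.22) and Krt18 (0.94 ± 0.24), which pair in filaments, were both above 0, as was the transcription factor Gata2 (1.22 ± 0.33). Id2, which inhibits basic helix-loop-helix factors, was below 0 at -0.92 ± 0.24, but without the 3 libraries its adjusted p was 0.327.

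Naive pluripotency genes were split, where 4.38% of all genes tested were above and 4.61% below 0. Nanog, a core factor of the naive state (chromosome 6, 122707489 to 122714633, plus strand), had 344, 368 and 362 CPM at 0 h, 163, 125 and 125 CPM at 2 h and 66.9, 67.2 and 77.8 CPM at 8 h in knockout clones A, B and C. In rescued clones Nanog had 327, 337 and 326 CPM at 0 h, 67.9, 86.95 and 79.1 CPM at 2 h and 19.9, 19.6 and 19.8 CPM at 8 h. Levels went down with time in both genotypes, and knockout libraries stayed above rescued ones at 2 h and 8 h. The step of Nanog was -0.97 ± 0.085 in knockout and -1.98 ± 0.10 in rescued cells, a difference of 1.01 ± 0.13 (adjusted p = 3.38e-06). Tbx3, a T-box factor of the naive network, had the same shape, with 52.3, 46.1 and 51.4 CPM in knockout and 18.6, 19.4 and 20.7 CPM in rescued libraries at 8 h and a difference of 0.95 ± 0.11. It overlaps Tbx3os1 on the other strand. Klf5 was the third member above 0 (0.27 ± 0.071), and Fgf4, Nr5a2 (-0.33 ± 0.086) and Gbx2 (-1.54 ± 0.48) were below 0, of 20 tested, and without the 3 libraries 3 were above and 2 below. Klf5, Nr5a2 and Gbx2 had adjusted p of 0.0724, 0.175 and 0.181 without the 3 libraries. Klf4 (-0.404 ± 0.15), Klf2 (-0.12 ± 0.17) and Esrrb (-0.09 ± 0.087) were not called. Of 11 general pluripotency genes 2 were above 0, Dppa4 (0.32 ± 0.075) among them, and none below with the edgeR fit reported here or with DESeq2, with 1 below at an unadjusted p under 0.05. Without the 3 libraries, as with the share of abundant genes as a covariate, 2 were above and 2 below, and leaving out the 3 turned the median to -0.198, against 0.12 over all libraries.

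Genes of the formative and primed epiblast, the state that follows the naive one, had 4 members above and 4 below 0 of 15. Of all genes tested 4.38% were above and 4.61% below 0. Otx2, a homeodomain factor that marks this state (chromosome 14, 48657677 to 48673819, minus strand), had 24.4, 27.7 and 24.1 CPM at 0 h, 16.6, 17.01 and 20.05 CPM at 2 h and 29.5, 32.3 and 30.4 CPM at 8 h in knockout clones A, B and C. In rescued clones Otx2 had 16.02, 17.7 and 18.01 CPM at 0 h, 6.41, 5.51 and 5.66 CPM at 2 h and 28.6, 33.1 and 27.96 CPM at 8 h. All libraries of both genotypes were lower at 2 h than at 0 h. Knockout libraries lay above rescued ones at 0 h and 2 h, and the genotypes overlapped at 8 h. The knockout step was 0.77 ± 0.10 and the rescued step 2.34 ± 0.12, both called, and the difference was -1.58 ± 0.16 (adjusted p = 3.26e-08). Otx2 overlaps Otx2os1 on the other strand. The de novo DNA methyltransferases parted: Dnmt3a fell less in knockout cells (0.78 ± 0.10) and Dnmt3b rose less (-0.54 ± 0.12). Dnmt3a had means of 71.2 ± 2.3, 192 ± 9.4 and 61.7 ± 10.3 CPM in knockout and 63.5 ± 4.2, 309 ± 11 and 56.3 ± 4.0 CPM in rescued libraries at 0, 2 and 8 h, so the genotypes differed mainly at 2 h. Each of the pair overlaps an antisense gene. Cdh2, the N-cadherin of cells leaving the epithelial state, had 29.9, 35.1 and 32.5 CPM in knockout and 118, 112 and 119 CPM in rescued libraries at 8 h. It rose by 1.16 ± 0.10 in knockout and 2.18 ± 0.078 in rescued cells, a difference of -1.02 ± 0.13 (adjusted p = 2.90e-06). Sox4, a transcription factor, rose more in knockout cells (0.86 ± 0.094). Of 14 primitive endoderm genes 2 were above and 4 below 0, against the same shares of all genes tested. Their summed level was 939 to 1123 CPM in knockout and 926 to 945 CPM in rescued libraries at 8 h. At 2 h it was 1099 to 1244 CPM in knockout and 901 to 931 CPM in rescued libraries. The collagen IV chains Col4a1 (-0.79) and Col4a2 (-1.03), which share a promoter region on opposite strands, were both below 0: their knockout step was -0.02 ± 0.094 and 0.03 ± 0.10, neither called, and both rose in rescued cells. Of 11 gastrulation and mesoderm genes 1 was above 0 and none below with the edgeR fit reported here or with DESeq2, with 2 below at an unadjusted p under 0.05, 2 below without a filter on low counts and 1 below without the 3 libraries.

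In the BMP and Nodal pathway 4 members were above and 2 below 0 of 21, against 4.38% and 4.61% of all genes tested. Id1, a BMP target that inhibits basic helix-loop-helix factors (chromosome 2, 152736251 to 152737410, plus strand), had 22.7, 26.95 and 29.7 CPM at 0 h, 19.7, 21.4 and 21.1 CPM at 2 h and 91.5, 92.5 and 105 CPM at 8 h in knockout clones A, B and C. In rescued clones Id1 had 45.4, 50.1 and 45.03 CPM at 0 h, 78.8, 75.8 and 72.4 CPM at 2 h and 163, 161 and 162 CPM at 8 h. Knockout libraries lay below rescued ones at each time. Id1 rose by 2.202 ± 0.080 in knockout and 1.098 ± 0.061 in rescued cells, a difference of 1.105 ± 0.10 (adjusted p = 7.30e-09). Bmp4, the ligand, rose by 2.82 ± 0.096 in knockout and 2.17 ± 0.087 in rescued cells. Id3, another Id gene, went the other way: it had 22.6, 19.5 and 20.96 CPM in knockout and 31.6, 36.3 and 30.4 CPM in rescued libraries at 8 h, fell in knockout cells and was below 0 at -0.65 ± 0.13. Smad7, an inhibitor of the pathway, and Lefty2 were the other members above 0, and Id2 the other below.

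D-type cyclins, which carry growth signals into the cell cycle, moved in opposite directions. Ccnd1, cyclin D1 (chromosome 7, 144929931 to 144939925, minus strand), had 22.5, 24.1 and 24.8 CPM at 0 h, 9.31, 7.32 and 8.66 CPM at 2 h and 7.56, 9.99 and 8.59 CPM at 8 h in knockout clones A, B and C. In rescued clones Ccnd1 had 32.4, 33.8 and 28.8 CPM at 0 h, 9.18, 11.4 and 9.77 CPM at 2 h and 27.1, 28.3 and 29.2 CPM at 8 h. Both genotypes were low at 2 h, and at 8 h the rescued libraries were back near their 0 h level while the knockout libraries were not. The knockout step of 0.03 ± 0.15 was not called, Ccnd1 rose by 1.48 ± 0.11 in rescued cells, and the difference was -1.45 ± 0.18 (adjusted p = 2.09e-06). Ccnd2, cyclin D2 (chromosome 6, 127125162 to 127152193, minus strand), had 8.06, 7.82 and 8.38 CPM in knockout and 2.42, 2.66 and 1.62 CPM in rescued libraries at 8 h. At 2 h Ccnd2 had 11.3, 7.56 and 11.1 CPM in knockout and 11.7, 9.38 and 13.98 CPM in rescued libraries. The genotypes overlapped at 2 h and stood apart at 8 h, a difference of 2.08 ± 0.27 (adjusted p = 2.86e-06). Cyclin E1, Ccne1, had 131, 140.1 and 156 CPM in knockout and 188, 189.6 and 189 CPM in rescued libraries at 8 h, rose in rescued cells and was below 0 at -0.55 ± 0.079. Cdk6, the kinase partner of D-type cyclins, rose less in knockout cells (-0.51 ± 0.11). Top2a and Pcna, replication genes, were above 0 at 0.34 and 0.25, with adjusted p of 0.184 and 0.146 without the 3 libraries. In all 3 of 38 cell cycle genes were above and 3 below 0, with a median of 0.02, against 4.38% and 4.61% of all genes tested, and without the 3 libraries 1 was above and 4 below.

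Many genes below 0 rose late in rescued cells and less, or with no called step, in knockout cells. Cdh13, the GPI-anchored T-cadherin (chromosome 8, 118283733 to 119324921, plus strand), had 11.4, 12.6 and 11.3 CPM at 0 h, 7.94, 7.204 and 8.22 CPM at 2 h and 20.2, 23.5 and 23.9 CPM at 8 h in knockout clones A, B and C. In rescued clones Cdh13 had 17.3, 16.1 and 16.5 CPM at 0 h, 12.6, 8.76 and 11.4 CPM at 2 h and 153, 151 and 155 CPM at 8 h. Knockout libraries lay below rescued ones at each time, most of all at 8 h. Cdh13 rose by 1.51 ± 0.12 in knockout and 3.804 ± 0.083 in rescued cells, a difference of -2.298 ± 0.16 (adjusted p = 1.42e-11). Cdk14, a cyclin-dependent kinase, had 38.1, 36.9 and 33.7 CPM in knockout and 92.2, 88.8 and 94.3 CPM in rescued libraries at 8 h and overlapped at 2 h, a difference of -1.18 ± 0.12. Cntfr, a receptor for ciliary neurotrophic factor (-1.58 ± 0.34), Slc25a24, a mitochondrial carrier (-1.62 ± 0.30), and Slc5a5, the sodium and iodide symporter (-1.52 ± 0.30), rose in both genotypes and less in knockout cells. Dclk1, a doublecortin-like kinase, had 4.43, 5.49 and 2.52 CPM in knockout and 16.5, 13.7 and 15.4 CPM in rescued libraries at 8 h, and its steps were called in opposite directions (-1.57 ± 0.29). Ptges, the prostaglandin E synthase, had 9.78, 10.3 and 11.9 CPM in knockout and 23.7, 21.9 and 23.6 CPM in rescued libraries at 8 h, and it fell in knockout and rose in rescued cells, a difference of -1.36 ± 0.16. The developmental transcription factor Wt1 (-1.47 ± 0.28), and Mcc (-1.38 ± 0.11), fell in knockout cells with no called step in rescued cells. Iqsec3, an exchange factor for Arf GTPases, fell in both and further in knockout cells (-1.51 ± 0.26). Its knockout level at 8 h was 1.21, 2.16 and 1.68 CPM, against 6.08, 5.31 and 6.27 CPM in rescued libraries.

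Adhesion genes had calls on both sides. Of 27 integrin and extracellular matrix genes 8 were above and 3 below 0, with a median of 0.29, against 4.38% and 4.61% of all genes tested, and of 21 cadherins and regulators of the epithelial-mesenchymal transition 6 were above and 4 below, and 5 above and 4 below without the 3 libraries. Itga5, the fibronectin receptor subunit, had 46.4, 47.8 and 47.99 CPM in knockout and 80.6, 97.1 and 97.8 CPM in rescued libraries at 2 h. Its step was 0.21 ± 0.080 in knockout and -0.59 ± 0.069 in rescued cells, a difference of 0.800 ± 0.11 (adjusted p = 3.69e-06). Itga3, a laminin receptor subunit, had 88.4, 114 and 123 CPM in knockout and 239, 209 and 225 CPM in rescued libraries at 8 h. It rose in both genotypes, by 1.51 ± 0.097 in knockout and 0.79 ± 0.076 in rescued cells. Vim, the intermediate filament vimentin, was above 0 at 0.71 ± 0.19, but its knockout clones spread from 36.7 to 76.9 CPM at 8 h. Without the 3 libraries rich in abundant genes the Vim difference was 0.02 (adjusted p = 0.964). The same omission left 2 matrix genes above and 4 below 0, and Itga7 (1.18) had an adjusted p of 0.11. With library size alone, 1 matrix gene was above and 2 below 0, and no cadherin or transition gene was above and 3 were below. The direction of the counts in these lists thus changed with the scaling. Of 20 targets of SRF and YAP and cytoskeletal genes 3 were above and 2 below 0, and of 16 Wnt targets 2 above and 1 below. Without the 3 libraries the balance of both turned, with 3 above and 4 below among the SRF, YAP and cytoskeletal genes and 1 above and 2 below among the Wnt targets.

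The glycolytic and hypoxia-linked genes on the list used here were called on 1 side of 0. Pfkfb4, which is not on this list although Pfkfb3 is, was called above 0 (1.07). Of 24 tested, 11 were below 0, against 4.61% of all genes tested, and none above with edgeR or DESeq2 or at an unadjusted p under 0.05 over all libraries, at which 15 were below, and 1 was above without knockout clone A at 8 h. The estimate was below 0 for 23 of the 24, with a median of -0.35. In knockout cells 3 rose and 16 fell over the step, and in rescued cells 12 rose and 6 fell. DESeq2 gave 9 below 0 and library size alone 9. Without the 3 libraries, with knockout clone A alone at 8 h, the median was -0.54. The promoters of 3 members are shown because a search for the hypoxia element NACGTGC on both strands found it in 11 of the 22 members with a promoter entry, 50%, against 9.38% of all tested genes with one. Since the list was picked as hypoxia-linked, this share is a description and not a test. Of the members below 0, Pfkfb3, Slc2a1, Bnip3, Slc16a3, Pgam1 and Pgk1 carried the element, and Pdk1, Tpi1, Pfkl, Pfkp and Vegfa did not. Capitals mark the element in RefSeq windows of GRCm38.p6, those of Bnip3 (chr7:138909457-138909756, minus strand), Slc16a3 (chr11:120948817-120949116, plus strand) and Slc2a1 (chr4:119108495-119108794, plus strand). In Bnip3 a pair of matches on opposite strands overlap.
Bnip3: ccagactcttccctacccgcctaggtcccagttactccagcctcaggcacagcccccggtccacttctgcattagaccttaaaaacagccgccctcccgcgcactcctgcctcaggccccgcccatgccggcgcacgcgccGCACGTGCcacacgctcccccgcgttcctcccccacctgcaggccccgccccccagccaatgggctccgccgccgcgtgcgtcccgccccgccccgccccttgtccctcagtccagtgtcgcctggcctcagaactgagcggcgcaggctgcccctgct
Slc16a3: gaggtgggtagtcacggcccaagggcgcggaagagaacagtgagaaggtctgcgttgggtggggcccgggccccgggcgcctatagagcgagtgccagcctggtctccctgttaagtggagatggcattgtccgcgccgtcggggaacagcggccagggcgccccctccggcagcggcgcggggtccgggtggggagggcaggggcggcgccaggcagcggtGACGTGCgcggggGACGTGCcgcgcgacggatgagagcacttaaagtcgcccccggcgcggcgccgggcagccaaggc
Slc2a1: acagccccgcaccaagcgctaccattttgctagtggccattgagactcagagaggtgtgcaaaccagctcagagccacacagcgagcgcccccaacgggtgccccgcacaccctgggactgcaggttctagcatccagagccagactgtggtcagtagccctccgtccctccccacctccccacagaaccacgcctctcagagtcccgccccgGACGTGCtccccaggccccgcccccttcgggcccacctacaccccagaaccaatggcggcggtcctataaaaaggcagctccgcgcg
Among all genes called, the element was as common above 0 (9.89%) as below 0 (9.82%).

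Bnip3, a mitochondrial protein of hypoxic mitophagy (chromosome 7, 138890836 to 138909519, minus strand), had 50.3, 59.9 and 57.5 CPM at 0 h, 45.5, 49.95 and 46.9 CPM at 2 h and 18.5, 24.5 and 24.7 CPM at 8 h in knockout clones A, B and C. In rescued clones Bnip3 had 31.2, 30.6 and 35.8 CPM at 0 h, 17.6, 19.3 and 20.3 CPM at 2 h and 32.5, 31.8 and 31.1 CPM at 8 h. Knockout libraries were above rescued ones at 0 h and 2 h and below them at 8 h, with no overlap. Bnip3 fell in knockout cells (-1.11 ± 0.098) and rose in rescued cells (0.74 ± 0.099), a difference of -1.85 ± 0.14 (adjusted p = 8.38e-11). Slc16a3, the lactate exporter MCT4, had 43.5, 61.1 and 73.2 CPM in knockout and 95.3, 84.8 and 83.7 CPM in rescued libraries at 8 h. At 2 h it had 94.2, 96.2 and 96.1 CPM in knockout and 67.4, 70.1 and 75.5 CPM in rescued libraries, so the order of the genotypes turned, and the difference was -1.06 ± 0.13. Vegfa, the angiogenic growth factor, had no called difference between the genotypes at 2 h (0.24 ± 0.12) and had 33.6, 26.96 and 21.4 CPM in knockout and 50.1, 48.4 and 44.7 CPM in rescued libraries at 8 h, a difference of -0.999 ± 0.17. Slc2a1, the glucose transporter GLUT1, likewise differed mainly at 8 h, with 284, 328 and 385 CPM in knockout and 562, 565 and 572 CPM in rescued libraries (-0.64 ± 0.100). Among enzymes, Pfkl (-0.72), Tpi1 (-0.69), Pgk1 (-0.598), Pgam1 (-0.38) and Pfkp (-0.32) were below 0, as were the regulators Pfkfb3 (-0.43) and Pdk1 (-0.41). Tpi1 overlaps Spsb2 (-0.82), and Pfkl lies 0.042 kb from 1810043G02Rik (-0.75), both also called below 0. Reads of these 2 enzymes cannot be assigned with certainty. The knockout clones were uneven at 8 h: Tpi1 had 42.9, 84.05 and 108 CPM in clones A, B and C, and clone A, the one without the surplus of abundant genes, was the lowest. Hk2 (-0.07 ± 0.083), Ldha (-0.397 ± 0.13) and Aldoa (0.14 ± 0.20) were not called.

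**Figure D3:**
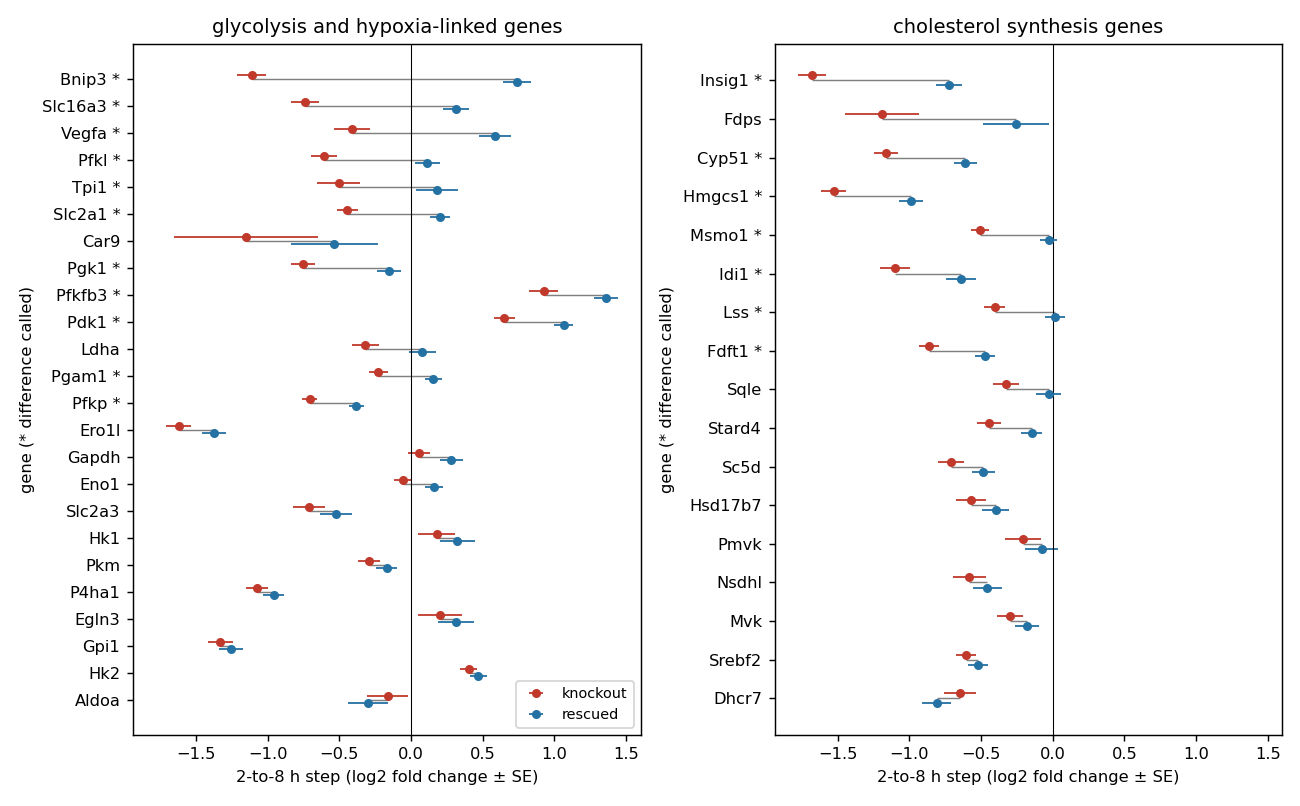
The 2-to-8 h step (log2 fold change ± SE, n = 3 clones per group) of 24 glycolysis and hypoxia-linked genes and 17 cholesterol synthesis genes in knockout (red) and rescued cells (blue), with an asterisk where the difference was called. The knockout step lies to the left of the rescued step for 23 of the glycolysis and hypoxia-linked and 16 of the cholesterol synthesis genes drawn.

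Cholesterol synthesis genes, the targets of the sterol-sensing factor SREBP2, shared this direction. Of 20 tested, 9 were below 0, against the same 4.61%, and none above with edgeR, DESeq2 or an unadjusted p under 0.05, at which 12 were below, and DESeq2 gave 7. The estimate was below 0 for 19 of 20, with a median of -0.31. The step was a fall for 19 members in knockout and 13 in rescued cells, and no member rose in either. Library size alone gave 4 below 0, and leaving out single libraries 5 (without knockout clone A at 8 h) to 11. Without the 3 libraries, with knockout clone A alone at 8 h, the median was -0.57. Insig1, which holds the sterol sensor in the endoplasmic reticulum (chromosome 5, 28071363 to 28078662, plus strand), had 62.6, 74.7 and 69.7 CPM at 0 h, 147, 180.3 and 171 CPM at 2 h and 49.3, 53.4 and 54.1 CPM at 8 h in knockout clones A, B and C. In rescued clones Insig1 had 58.6, 56.9 and 49.95 CPM at 0 h, 85.5, 126 and 113 CPM at 2 h and 66.98, 65.02 and 63.7 CPM at 8 h. Knockout libraries were the higher ones at 2 h and the lower ones at 8 h. The difference was -0.96 ± 0.13 (adjusted p = 8.79e-06). Hmgcs1, an early enzyme of the pathway, had 256, 288 and 297 CPM in knockout and 175, 192 and 198 CPM in rescued libraries at 2 h, and its levels overlapped at 8 h (-0.54 ± 0.12). Msmo1, a sterol oxidase, stood apart at 8 h instead, with 82.4, 94.7 and 94.5 CPM in knockout and 141, 137 and 141 CPM in rescued libraries at 8 h (-0.48 ± 0.086). Cyp51, lanosterol demethylase, was below 0 at -0.55 ± 0.12 and overlaps Akap9 on the other strand. Idi1 (-0.46), Lss (-0.42) and Fdft1 (-0.39) were also called.

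**Figure D4:**
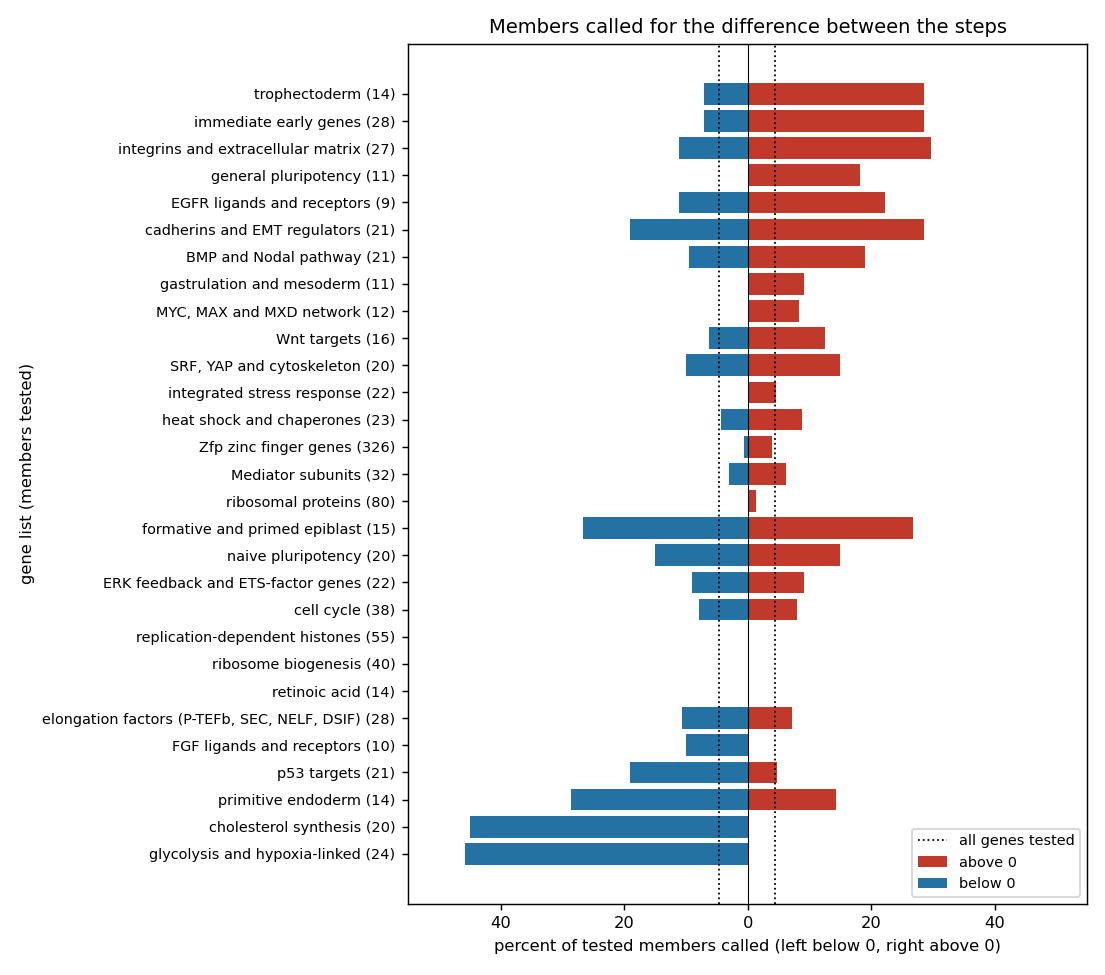
Percent of the tested members of each gene list whose difference was called above 0 (red, right) and below 0 (blue, left), for lists with at least 9 tested members, whose number is in parentheses. Dotted lines mark the percentages over all genes tested, 4.38% above and 4.61% below 0. The metabolic lists reach farthest to the left.

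AP-1 sites were counted in the promoters of genes above and below 0. The AP-1 element TGANTCA, searched on both strands of the RefSeq window, was present for 52 of 465 genes above 0 with an entry (11.2%), 19 of 499 below 0 (3.81%) and 695 of all 10790 tested genes with one (6.44%). Genes can have several windows, 1.35 on average above 0, 1.41 below 0 and 1.28 over all, and per window the shares were 8.92% above 0, 2.99% below 0 and 5.36% over all. The immediate early list had the element in 0 of 19 members. Shares of the CRE-like element TGACNTCA were 9.03% above 0, 9.02% below 0 and 8.34% over all. For the ETS element CCGGAAGT they were 7.31% above 0, 3.81% below 0 and 8.54% over all. The TEAD element ACATTCC was present for 3.44% above 0, 4.61% below 0 and 3.31% over all, and the CArG box bound by SRF for 2.80% above 0, 2.00% below 0 and 1.58% over all. These shares are given with no test, and a match in such a window does not show that a factor binds there. Windows of 3 genes above 0 are printed, with the AP-1 elements in capitals, because they carry the element and are among the highest differences: those of Lrrc15 (chr16:30283205-30283504, minus strand), Vtcn1 (chr3:100825209-100825508, plus strand) and Emp1 (chr6:135362681-135362980, plus strand).
Lrrc15: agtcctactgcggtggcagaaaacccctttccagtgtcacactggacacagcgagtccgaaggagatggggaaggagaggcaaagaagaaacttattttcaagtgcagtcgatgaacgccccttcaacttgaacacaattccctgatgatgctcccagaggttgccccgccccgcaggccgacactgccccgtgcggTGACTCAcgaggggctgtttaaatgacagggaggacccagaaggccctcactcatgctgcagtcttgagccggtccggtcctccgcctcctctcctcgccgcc
Vtcn1: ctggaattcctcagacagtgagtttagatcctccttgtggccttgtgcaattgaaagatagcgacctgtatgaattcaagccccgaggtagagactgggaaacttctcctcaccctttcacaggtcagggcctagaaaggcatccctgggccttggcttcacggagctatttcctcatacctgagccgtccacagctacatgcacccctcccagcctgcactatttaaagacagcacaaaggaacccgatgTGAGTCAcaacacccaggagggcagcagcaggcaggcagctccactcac
Emp1: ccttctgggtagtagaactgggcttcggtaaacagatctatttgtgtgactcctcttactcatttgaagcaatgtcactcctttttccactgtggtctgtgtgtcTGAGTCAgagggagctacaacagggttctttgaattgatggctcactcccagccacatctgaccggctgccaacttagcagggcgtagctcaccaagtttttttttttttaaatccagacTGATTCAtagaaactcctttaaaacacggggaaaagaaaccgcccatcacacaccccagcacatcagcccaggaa
Lrrc15 had 9.37, 7.49 and 7.34 CPM in knockout and 3.92, 3.92 and 2.901 CPM in rescued libraries at 8 h, and Vtcn1 had 16.5, 14.5 and 11.3 CPM in knockout and 8.17, 8.98 and 10.4 CPM in rescued libraries. Emp1 had means of 15.4 ± 1.9, 20.9 ± 2.4 and 48.4 ± 4.7 CPM in knockout and 23.5 ± 1.8, 95.7 ± 3.3 and 84.3 ± 1.6 CPM in rescued libraries at 0, 2 and 8 h.

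**Figure D5:**
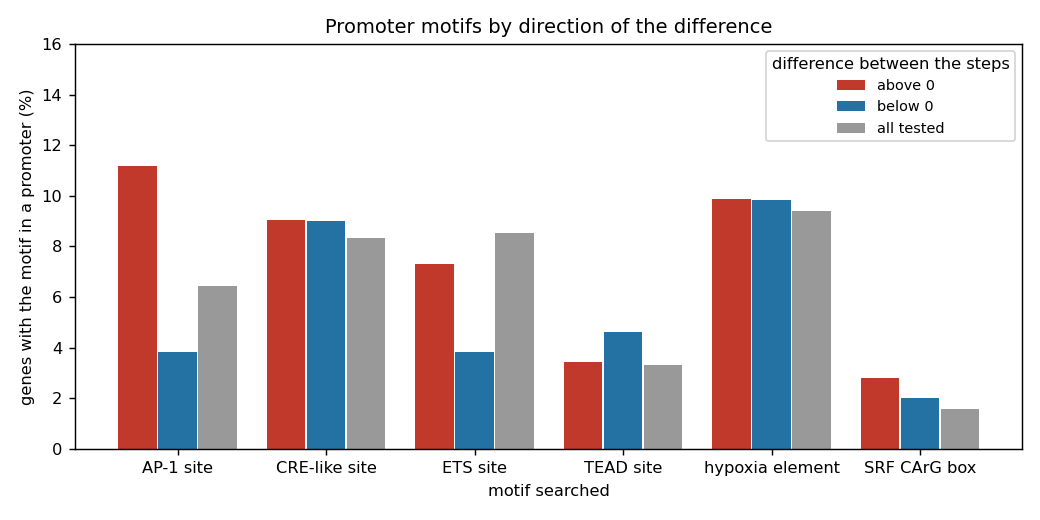
Percent of genes with each motif in a RefSeq promoter window, for genes above 0 (red, 465 genes), below 0 (blue, 499 genes) and all tested (grey, 10790 genes). AP-1 sites stand at 11.2% above 0 and 3.81% below 0, whereas the CRE-like and hypoxia elements are nearly level.

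Long genes were called more often than short ones. With the tested genes in 4 equal bins of annotated length, 5.46% of the shortest (median 5.71 kb), 7.75% of the second, 8.67% of the third and 14.1% of the longest (median 120.8 kb) were called. Among the longest 190 were above and 302 below 0, and among the shortest 109 were above and 82 below. Median levels were 11.1, 25.3, 34.9 and 30.8 CPM from shortest to longest, so the bins also differed in level. The part of length or depth in the calls was not tested.

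Of 32 Mediator subunits 2 were above and 1 below 0, a share near that of all genes called (9%), and 1 was above and 1 below without the 3 libraries. Med24 itself was above 0 (1.79 ± 0.12); its rescued level fell over the step, as given above. Med18, a head subunit, was above at 0.34 ± 0.11, a call absent with DESeq2 and without the 3 libraries (adjusted p = 0.133), and Med13l, of the kinase module, below at -0.24 ± 0.076. Of 28 elongation factors 2 were above and 3 below 0, and 1 above and 1 below without the 3 libraries. Aff1, a scaffold of the super elongation complex, rose in both genotypes and more in knockout cells (0.61 ± 0.083, adjusted p = 5.10e-06), and Mllt3, another of its subunits, rose less (-0.48 ± 0.13), with an adjusted p of 0.0573 without the 3 libraries. Of 12 genes of the MYC network 1, Myc, was above 0. Of 80 ribosomal protein genes 1 was above 0, but 24 were without knockout clone A at 8 h, and without the 3 libraries 1 was above and 1 below. No call was made among 40 ribosome biogenesis genes, 55 replication-dependent histones or 14 retinoic acid genes with the edgeR fit reported here or with DESeq2, where 3, 2 and 0 were above and 0, 0 and 1 below 0 at an unadjusted p under 0.05. Other edgeR settings did make calls: without a filter on low counts 4 histones were above and 1 retinoic acid gene below 0, with a mean of at least 5 CPM 1 ribosome biogenesis gene was above, with the clone block, with library size alone or without the 3 libraries 1 retinoic acid gene was below, and with the share of abundant genes as a covariate 1 histone and 1 retinoic acid gene were below. Among 22 genes of the integrated stress response 1 was above 0, among 23 chaperones 2 above and 1 below, and among 21 p53 targets 1 above and 4 below. For every list in this paragraph the shares of all genes tested were 4.38% above and 4.61% below 0 with the edgeR fit reported here. Without the 3 libraries the stress response had 5 above 0, the chaperones 6 below and none above, and the p53 targets 2 above and none below. Without knockout clone A at 8 h, 11 histones, 8 cell cycle genes and 6 chaperones were above 0 and 9 p53 targets below. That fit, which also gave the 24 ribosomal protein genes, called more genes of all kinds. Over all genes it called 833 above and 726 below 0, against 619 and 652 with all libraries. Of 326 Zfp zinc finger genes 13 were above 0, a share near that of all genes above 0. In this list 2 were below 0, a smaller share than the 4.61% of all genes tested.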

How the data were processed

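Nascent RNA labelled with ethynyl uridine was captured with a Click-iT kit and made into libraries with NEBNext Ultra 2, per the labels' protocols. The values are raw read counts per gene, deposited by the authors as 1 table of 18 libraries. STAR, featureCounts and DESeq are listed without versions in the submitters' processing notes, which give mm10 as the build. The strand setting of counting is not given in the sources used here. Replicate columns were matched to clones A, B and C by name. No 2 replicates agreed within sampling noise (chi-square test of their counts).

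The counts were tested with edgeR 4.0.16 (R 4.3.3, limma 3.58.1): filterByExpr, TMM scaling, 6 group means fitted over all 18 libraries, and quasi-likelihood tests of each step and of their difference, with Benjamini-Hochberg adjustment over the 14128 genes tested at a threshold of 0.05. The 0 h libraries entered only the fit and the values shown. Values per library are TMM-scaled CPM. SEs are model values on the log2 scale, with 3 clones per group. Each is the absolute log2 value over the square root of its quasi-likelihood F, from the fit over all 18 libraries. Symbols were looked up in GENCODE M21 (98.7% found) for positions in GRCm38, and 10790 genes tested had a RefSeq promoter window.

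Named genes were Med24, the 12 highest and 12 lowest differences called in every fit that left out 1 library (mean of at least 5 CPM, correlation with Cdk8 within groups of at most 0.9), the 3 largest of each class of steps, and up to 4 members of each list by p, 117 in all. Genes outside this rule, named as neighbours, as carriers of a motif or to complete a count, were chosen after their values were seen, and some genes counted in the totals are not reported here by name. Members and lists were chosen with earlier results of these data known. Alternatives were other scalings, filters, DESeq2 1.42.0, a clone block, fewer libraries and the share of abundant genes as a covariate. The procedure was tested on simulated data.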

Additional observations from a re-analysis of the deposited data

Results flagged for a closer look

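The difference between the knockout and the rescued step was itself tested, and it was called above 0 for 619 genes and below 0 for 652 (edgeR quasi-likelihood test, Benjamini-Hochberg adjusted). Among the 117 named genes, 15 had steps called in opposite directions in the genotypes. The 8 that rose in knockout and fell in rescued cells were Lefty2 (2.21), Crym (1.65), Oaf (1.58), Gsg1 (1.55), Phlda1 (1.09), Rpl39l (0.91), Itga5 (0.800) and Zfp13 (0.66). The 7 that fell in knockout and rose in rescued cells were Bnip3 (-1.85), Dclk1 (-1.57), Ptges (-1.36), Slc16a3 (-1.06), Vegfa (-0.999), Slc2a1 (-0.64) and Hsp90b1 (-0.45). All values are differences between the steps on the log2 scale. For Lefty2 the knockout rise was called although the knockout libraries at 2 h and 8 h overlapped.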

How the results depend on the processing

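No named gene changed sign under any alternative. With library size alone in place of TMM the counts were 79 above and 292 below 0, with 2619 genes higher at 8 h in knockout cells and 2532 lower at 8 h in rescued cells, and 365 of the 1271 calls were kept. Leaving out 1 library at a time gave 468 to 833 genes above and 499 to 726 below 0, 3735 to 4166 higher and 3578 to 3928 lower in knockout cells, and 3870 to 4449 higher and 3928 to 4431 lower in rescued cells. Leaving out knockout clone A at 8 h gave the highest of these counts above and below 0, with 492 new calls. Clone A is the only knockout library at 8 h in the fit that leaves out the 3 libraries rich in abundant genes. Without the 3 libraries rich in abundant genes there were 496 above and 649 below 0: 833 calls were kept, 438 were not and 312 were new. DESeq2 gave 438 above and 550 below, and its size factors in edgeR 583 and 676. The 12 libraries alone gave 534 and 599, no filter 682 and 756, a mean of at least 5 CPM 613 and 650, scaling without the abundant genes 616 and 645, and their share as a covariate 698 and 760. Of the 117 named genes, library size alone ended 47 calls, leaving out the 3 libraries 19, DESeq2 7 (Jund, Ier5, Krt18, Vim, Med18, Psat1 and Bag3), and leaving out 1 library 3 to 10. Dusp14 (without knockout 8 h clone B), Fgf4 (without rescued 8 h clone A), Mllt3 (without rescued 2 h clone B) and Nrg1 (without knockout 2 h clone B) each lost the call without 1 library, and Vim without knockout 8 h clone B or C. Clone letters were not shown to pair the libraries: deviations of libraries with 1 letter had a mean r of 0.013 (-0.129 to 0.0686 over 18 pairs), and for 5 of 12 libraries the highest correlation was with the same letter. With the letter as a replicate block the counts were 638 above and 657 below 0, and 1233 calls were kept. Depth limits genes with few counts, such as Gbx2, Fosb, Thy1 and, at 8 h, Sec14l5, most.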
